A study of Mus musculus with 2 samples.

Results

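The simple epithelial keratins Krt8, Krt18, Krt19 and Krt42 were examined in single mouse induced pluripotent stem cells (iPSCs), 4 genes of the 27998 in the deposited matrices. They were chosen by their levels, shares of cells, co-expression and knockout over wild-type ratios in these libraries, so those values are a description and no test is attached to them. The iPSCs carried either SRF Δ/Δ alleles (KO), in which the gene of serum response factor is deleted, or SRF f/f alleles (WT), the floxed gene left intact, and both were grown in medium with serum. Each genotype was represented by 1 droplet library (10x Genomics Chromium). How many clones or cultures went into a library is not given in the sources used here. With 1 library per genotype, differences are between these libraries, with no check by replicates, and the 95% intervals cover counting error of unique molecular identifiers (UMIs) only.

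Keratins are intermediate filament proteins that assemble only as pairs of a type II and a type I chain. Krt8 is the type II chain of simple epithelia, and Krt18 is its usual type I partner. Krt19 is a small type I keratin that lacks the tail domain, and Krt42 is a type I keratin of mouse whose human counterpart is a pseudogene. In the early embryo Krt8 and Krt18 are among the first intermediate filament genes to be expressed, in trophectoderm and in extraembryonic endoderm, while the pluripotent inner cells have little of either protein.

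The genes lie in the keratin clusters of mouse chromosomes 15 and 11 (GRCm38 coordinates from GENCODE M21). Krt8 (ENSMUSG00000049382) is at chr15:101996698-102004482 on the minus strand and Krt18 (ENSMUSG00000023043) at chr15:102028180-102032027 on the plus strand, so they are divergent neighbours whose starts are 23698 bases apart. Krt19 (ENSMUSG00000020911) is at chr11:100140810-100148665 and Krt42 (ENSMUSG00000053654) at chr11:100262882-100269871, both on the minus strand. All 4 are protein-coding. Promoter sequences from RefSeq (GRCm38.p6) were matched for 3 of the 4. The neighbours Krt8 and Krt18 were found in the same cells more often than their separate frequencies give, while Krt42 was found with either at about that rate or below it. Much of the correlation of Krt8 and Krt18 over cells rested on few cells, as given below. The promoter sequences are shown beside these values, and shared regulation was not tested. Each is written 5′ to 3′ on the gene's own strand and stops before the first start annotated by RefSeq or GENCODE, at chr15:102004483-102004592 (minus) for Krt8, chr15:102027966-102028179 (plus) for Krt18 and chr11:100269952-100270201 (minus) for Krt42. Capitals would mark a motif match, and none fell in these stretches.
Krt8: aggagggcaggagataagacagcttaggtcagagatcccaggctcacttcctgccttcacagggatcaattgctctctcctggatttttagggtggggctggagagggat
Krt18: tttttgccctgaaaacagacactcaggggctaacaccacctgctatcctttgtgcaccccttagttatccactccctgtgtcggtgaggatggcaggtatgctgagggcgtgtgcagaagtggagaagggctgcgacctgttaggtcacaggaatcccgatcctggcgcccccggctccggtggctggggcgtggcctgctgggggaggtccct
Krt42: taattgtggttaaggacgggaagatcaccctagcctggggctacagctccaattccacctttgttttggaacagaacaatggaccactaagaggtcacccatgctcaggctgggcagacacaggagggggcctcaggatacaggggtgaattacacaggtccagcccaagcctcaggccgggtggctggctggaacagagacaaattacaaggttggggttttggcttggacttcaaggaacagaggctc

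The motifs TATAAA (the TATA box), GGGCGG (bound by SP1), TGANTCA (bound by AP-1), CATTCC (bound by TEAD factors), CCGGAA (bound by ETS factors) and the CArG box (bound by serum response factor) were searched on both strands of the whole RefSeq windows of 300 bases, which reach past the start. TATAAA had 2 matches in the Krt8 window, with 1 from position -3 relative to the RefSeq start, and 1 match in the Krt42 window, from position 20. It is present in 13.6% of 32851 mouse promoter windows of that length. Whether these matches act as a TATA box was not tested. The Krt18 window held none of the 6 motifs, and the Krt8 and Krt42 windows held none of the other 5. The shares of all windows with a match were 35.7% for GGGCGG, 7.81% for TGANTCA, 14.7% for CATTCC, 14.9% for CCGGAA and 1.63% for the CArG box.

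The KO library held 1073 cells and 22277996 UMIs (median 20605 per cell) and the WT library 954 cells and 24005849 UMIs (median 25907). Cells with at least 1000 detected genes, 1 to 10% mitochondrial UMIs and fewer than 5 UMIs over Col1a2, Col3a1 and Acta2 were kept, 731 KO and 893 WT. Endoderm-low cells had at most 1 UMI over Gata6, Gata4, Sox17, Pdgfra, Dab2, Cubn, Lrp2 and Amn (580 KO and 873 WT cells), and endoderm-high cells had at least 10 (94 KO and 3 WT cells). Srf had 3 UMIs in KO and 196 in WT endoderm-low cells, and the pluripotency markers, Pou5f1 among them, were present in both (10 markers summed, 10243 and 13228 UMIs per 1e6 UMIs of the class, written CPM). In the KO endoderm-high cells those markers summed to 4868 CPM, with Nanog at 4.87 CPM. The primitive endoderm list summed to 2670 CPM there. That list shares genes with the rule that chose these cells, so its sum is high by construction and is no separate sign of their identity. Of the 3 WT endoderm-high cells, 2 had at least 10 UMIs over macrophage markers, so no level is compared with that class, and 2 of the 94 KO ones did. Doublet calls numbered 0 KO and 2 WT among the kept cells, too few to rely on, and the libraries shared 2 cell barcodes.

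In endoderm-low cells, Krt8, Krt18 and Krt42 had lower levels in KO than in WT, and Krt19 was near equal. Krt8 had 174 UMIs in KO (11.99 CPM, interval 10.3 to 13.9) and 509 in WT (22.4 CPM, 20.5 to 24.5), a log2 ratio of -0.90 (-1.16 to -0.65). Krt18 had 149 UMIs in KO (10.3 CPM, 8.69 to 12.1) and 689 in WT (30.3 CPM, 28.1 to 32.7), a log2 ratio of -1.56 (-1.83 to -1.31). The intervals of the levels did not overlap for either partner of the pair.

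Krt19 had 145 UMIs in KO (10.00 CPM, 8.43 to 11.8) and 193 in WT (8.50 CPM, 7.34 to 9.79), a log2 ratio of 0.23 whose interval, -0.09 to 0.55, included 0. Krt42 had 525 UMIs in KO (36.2 CPM, 33.2 to 39.4) and 1463 in WT (64.4 CPM, 61.2 to 67.8), a log2 ratio of -0.83 (-0.98 to -0.69). The levels of different keratins are not ranked against each other, since the UMI counts carry no length scale. Over the 6440 genes whose mean level reached 10 CPM, the median log2 ratio was 0.06, with a 10th percentile of -0.32 and a 90th of 0.44. Of those genes 2.84% were at least 1.5-fold lower in KO and 0.637% at least 2-fold lower, and 4.57% were at least 1.5-fold higher. Krt8, Krt18 and Krt42 were in the first group and Krt18 also in the second, while Krt19 did not reach the 10 CPM mean. The rule used this contrast, so nothing is read from these counts.

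**Figure D1:**
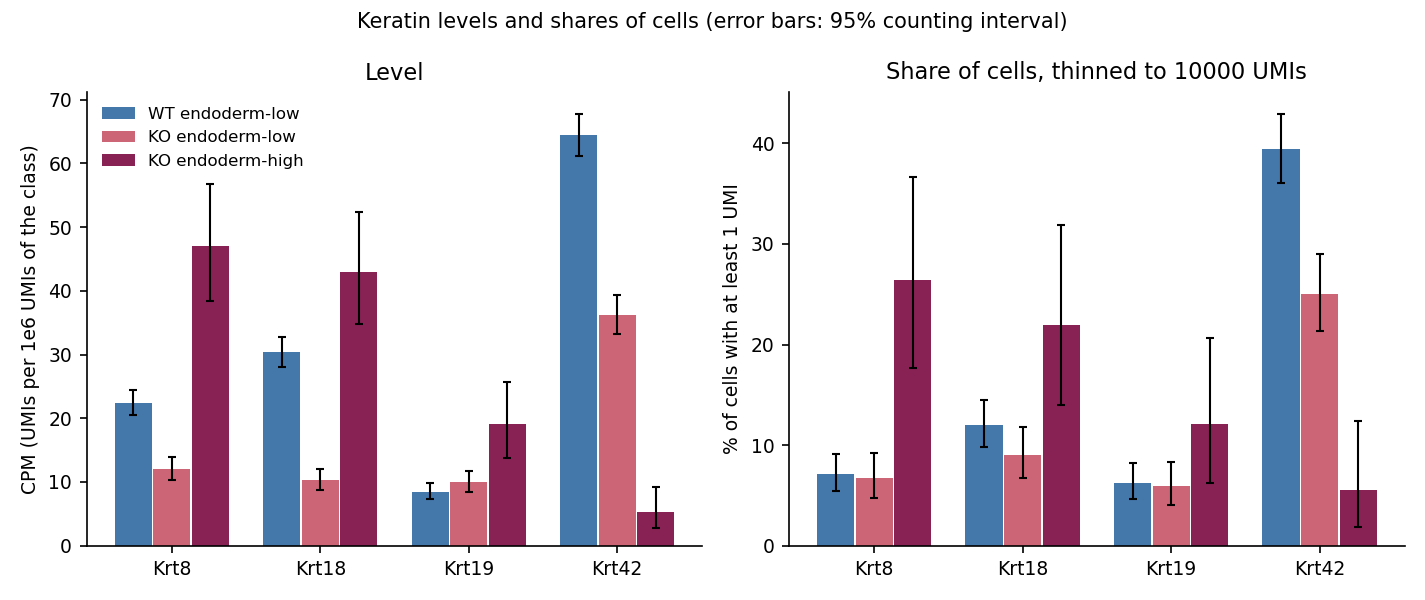
Levels in CPM (left) and percent of cells with at least 1 UMI after each cell was thinned to 10000 UMIs (right) for the 4 keratins in WT endoderm-low, KO endoderm-low and KO endoderm-high cells, with bars for 95% counting intervals. Krt8 and Krt18 stand highest in KO endoderm-high cells (47.0 and 43.0 CPM), and Krt42 stands lowest there (5.32 CPM).

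The levels of Krt8 and Krt18 rested on fewer cells than that of Krt42. In WT endoderm-low cells the single highest cell held 140 of the 509 Krt8 UMIs (27.5%), and the 10 highest held 68.8%. For Krt18 the highest WT cell held 210 of 689 UMIs (30.5%) and the 10 highest 61.5%. For Krt42 the highest WT cell held 29 of 1463 UMIs (1.98%) and the 10 highest 9.77%. In KO the highest cell held 42 of the 174 Krt8 UMIs, 12 of the 149 Krt18 UMIs, 23 of the 145 Krt19 UMIs and 20 of the 525 Krt42 UMIs. The median cell had 0 UMIs of Krt8, Krt18 and Krt19 in both libraries, and of Krt42 it had 0 in KO and 1 in WT.

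Shares of cells set the keratins apart in the same way. Because the libraries differed in depth, each cell was thinned to 10000 UMIs, which left out 60 of 580 KO and 75 of 873 WT cells as shallower. Krt8 was then detected in 6.73% of KO (interval 4.73 to 9.24) and 7.14% of WT cells (5.45 to 9.16). Krt18 was detected in 9.04% (6.72 to 11.8) and 12.03% (9.85 to 14.5), and Krt19 in 5.96% (4.09 to 8.36) and 6.27% (4.69 to 8.18). For these 3 genes the intervals of the libraries overlapped. Krt42 was detected in 25.0% of KO (21.3 to 28.95) and 39.5% of WT cells (36.1 to 43.0), and these intervals did not overlap.

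Without thinning, the shares in KO and WT were 15% and 16.2% for Krt8, 17.1% and 23.5% for Krt18, 11.4% and 12.5% for Krt19, and 45.2% and 61.3% for Krt42. Cells with at least 20 UMIs over the fibroblast genes, 16 in KO (median 32456 UMIs) and 9 in WT (median 19258), served as a check for free RNA in droplets. Krt8, Krt19 and Krt42 had no UMI in them in either library, which allows up to 5.90 CPM in KO and 20.01 CPM in WT, and Krt18 had 1 UMI in each. The squared coefficient of variation (CV2) over thinned cells was 43.7 in KO and 90.4 in WT for Krt8, 12.1 and 68.5 for Krt18, 24.3 and 25.7 for Krt19, and 4.28 and 2.78 for Krt42. CV2 also depends on the level. The variance divided by the mean is 1 under counting error alone, but it too depends on the level where cells differ by more than that. It was 5.12 in KO and 17.3 in WT for Krt8, 1.21 and 19.6 for Krt18, 2.06 and 2.22 for Krt19, and 1.499 and 1.75 for Krt42.

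Krt8 and Krt18 were found in the same cells more often than their separate frequencies give. In thinned WT cells 57 had Krt8 and 96 had Krt18, and 13 had both, against 6.86 if the genes were independent. In KO 35 cells had Krt8, 47 had Krt18 and 11 had both, against 3.16. Over cells, the Pearson correlation of log2(thinned count + 1) was 0.55 in WT (798 cells) and 0.34 in KO (520 cells). The cells of a class share 1 library, and these values carry no p. The correlations of Krt42 with Krt8, Krt18 and Krt19 lay between -0.08 and -0.02 in both libraries. In WT 39 cells had Krt18 and Krt42 (37.9 if independent), 17 had Krt8 and Krt42 (22.5) and 13 had Krt19 and Krt42 (19.7). In KO these counts were 9 (11.8), 7 (8.75) and 4 (7.75). So Krt42 and Krt18 were found together in WT about as often as independent genes would be, and the other pairs with Krt42 somewhat less often.

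**Figure D2:**
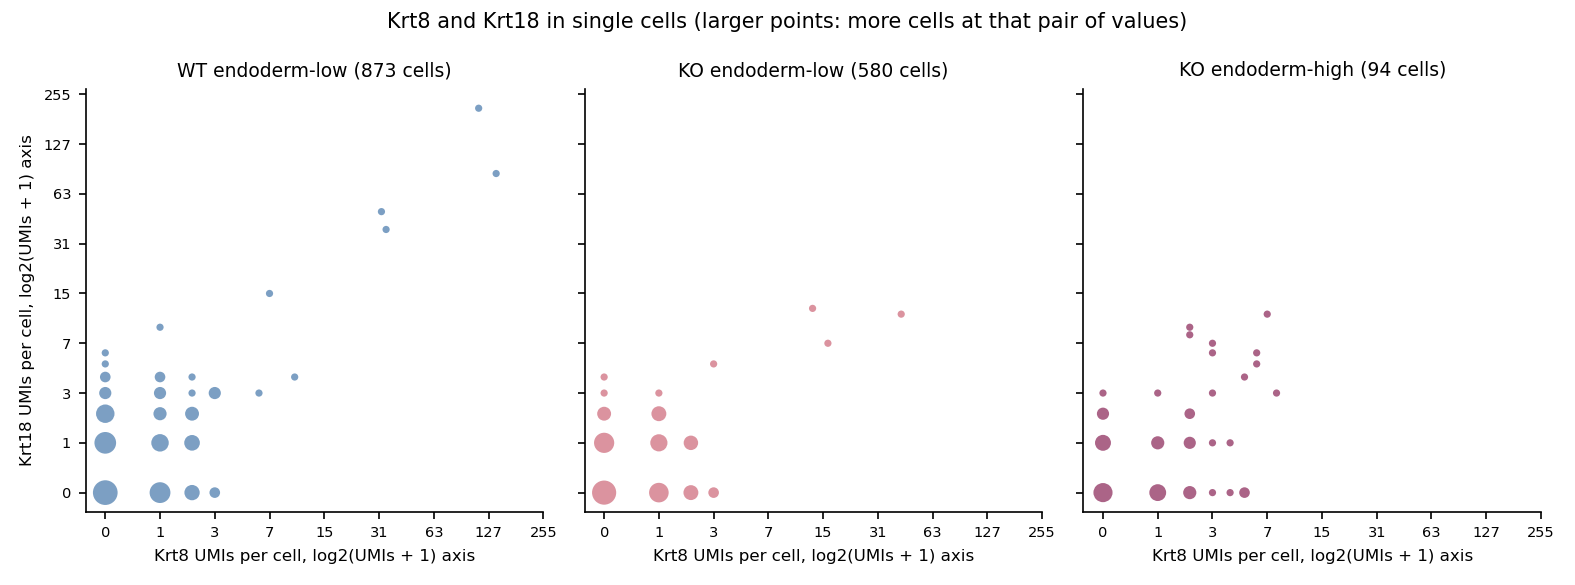
Krt8 (x axis) and Krt18 (y axis) UMIs per cell, both on log2(UMIs + 1) axes, in WT endoderm-low, KO endoderm-low and KO endoderm-high cells, with larger points where more cells share the same values. In WT 4 cells lie far up the diagonal, at 32 or more UMIs of both genes, and no KO endoderm-low cell reaches 13 UMIs of Krt18.

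Cells with at least 10 UMIs summed over Krt8, Krt18 and Krt19, a limit chosen after the values were seen, are called keratin-rich here. They numbered 5 of 580 in KO (0.862%, exact binomial interval 0.280 to 2.0) and 7 of 873 in WT (0.802%, 0.323 to 1.65). Just under the limit, 9 KO and 16 WT cells had 5 to 9 UMIs, and just over it 1 cell in each library had 10 to 14. The 7 WT cells held 66.0% of all Krt8 UMIs, 59.4% of Krt18, 26.9% of Krt19 and 0.0684% of Krt42. The 5 KO cells held 41.95%, 20.8%, 31.03% and 1.14%. Krt42 did not enter the limit, so its small share is not a contrast with the other 3, whose UMIs chose the cells. Before thinning, Krt8 and Krt18 were each present in all 7 WT and in 4 of the 5 KO keratin-rich cells. How many of the thinned cells with both genes were keratin-rich was not counted.

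The keratin-rich cells were not alike. WT cell 1 had 112 Krt8, 210 Krt18 and 10 Krt19 UMIs, with 19 of the trophoblast keratin Krt7, 391 of Rhox6 and 165 of Rhox9, homeobox genes of placenta and germ line, and 0 of Pou5f1. WT cell 2 had 140 Krt8, 84 Krt18 and 25 Krt19 UMIs, with 29 of Krt7 and 0 of Rhox6. WT cells 3 and 4 had 34 and 32 Krt8 and 38 and 49 Krt18 UMIs, with 80 and 50 UMIs of the smooth muscle gene Tagln. Cell 4 also had 96 UMIs of Vim, the intermediate filament of mesenchymal cells, and 20 over the fibroblast list.

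In KO, cell 1 had 42 Krt8, 11 Krt18 and 8 Krt19 UMIs and cell 2 had 13, 12 and 2, the latter with 21 UMIs of Rhox6. KO cell 4 had 23 UMIs of Krt19 and 0 of Krt8, Krt18 and Krt42, with 29 of Vim. KO cell 5 had 11 of Krt19 and, alone among the 12 cells, more than 1 of Krt42 (6). Krt7 had 0 UMIs in all 5 KO cells. None of the 12 cells was called a doublet. Of the trophectoderm transcription factor genes, Gata3 had 1 to 3 UMIs in each of 4 WT cells and none in KO, and Cdx2 had 3 UMIs in WT cell 1 and 1 in KO cell 3. Elf5, of trophoblast stem cells, had 0 UMIs in these and in all other endoderm-low cells.

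**Figure D3:**
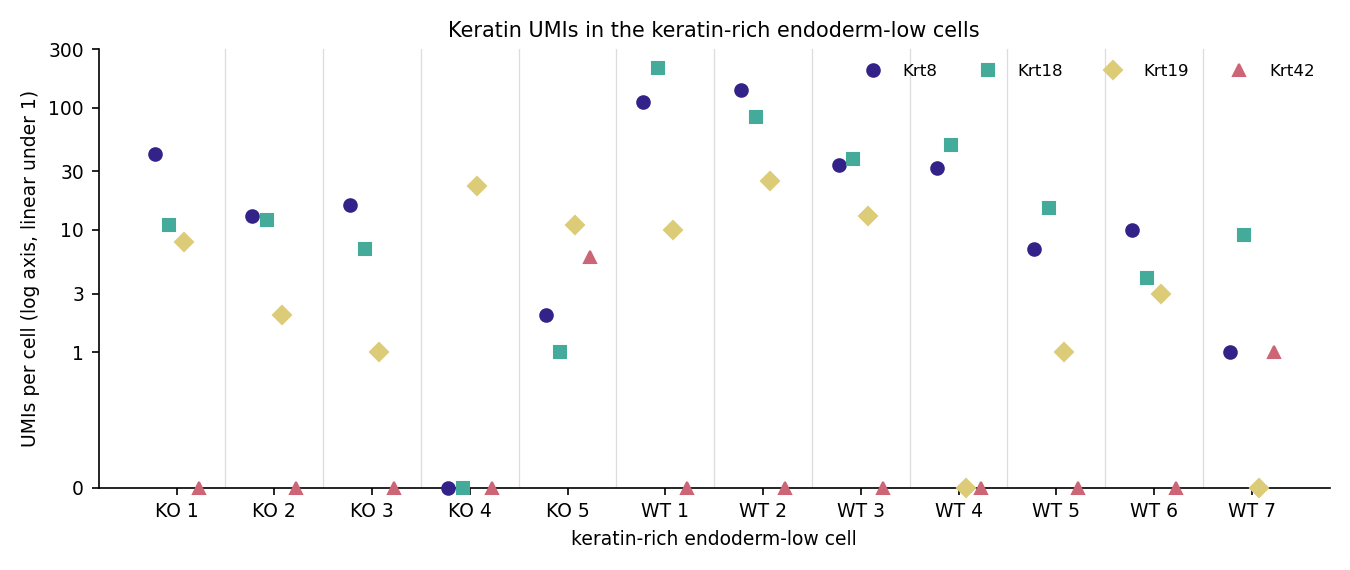
UMIs of Krt8, Krt18, Krt19 and Krt42 (y axis, logarithmic above 1 and linear below) in each of the 5 KO and 7 WT keratin-rich endoderm-low cells (x axis). Krt42 is at 0 in 10 of the 12 cells, and KO cell 4 has Krt19 alone.

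Summed over keratin-rich cells and set against the other endoderm-low cells of the same library, the pluripotency markers were lower in both libraries, with a log2 ratio of -0.47 (interval -0.55 to -0.40) in KO and -2.21 (-2.33 to -2.10) in WT. The KO sum pooled unlike cells: cells 3 and 5 had 10325 and 11110 CPM, beside 10281 CPM in the other endoderm-low cells, and cells 1, 2 and 4 had 4673, 4443 and 984 CPM. In WT 6 of the 7 cells had 450 to 4787 CPM and cell 6 had 10299 CPM, beside 13324 CPM in the others. The naive pluripotency list was at -0.84 in KO and -2.05 in WT, with 5 of 11 and 10 of 11 assessed genes at least 2-fold lower, where 6.49% and 7.84% of all assessed genes were. The epithelial adhesion list was higher by 0.48 in KO and 1.46 in WT. Of its assessed genes 4 of 11 in KO and 12 of 15 in WT were at least 2-fold higher, where 14.7% and 24.4% of all assessed genes were. Among them the tight junction gene Cldn7 was higher by 1.86 in KO and 2.79 in WT, and Cldn4 by 2.23 and 1.63. Perp, a desmosome-associated membrane protein gene, was higher by 1.35 and 3.34. The trophectoderm list, which includes Krt7, was higher by 2.48 in KO and 3.25 in WT, but these sums rested on few cells. WT cells 1 and 2 held 56 and 33 of the 100 UMIs and the other 5 cells 0 to 9, and KO cell 2 held 22 of the 34 UMIs, 21 of them of Hand1, a transcription factor gene of trophoblast giant cells.

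Lists of other identities moved as well in the keratin-rich cells. The endoderm genes that the rule did not use were higher by 1.08 in KO and 2.07 in WT, and the other intermediate filament genes by 0.51 and 1.44. Sparc made up 36 of the 96 endoderm UMIs in KO and 132 of the 182 in WT. Vim made up 32 of the 86 filament UMIs in KO and 101 of the 172 in WT. Of those Vim UMIs, KO cell 4 held 29 and WT cell 4 held 96. The desmosome and plakin genes were higher by 0.65 and 1.61, and the other keratins by 1.21 and 2.68. In WT 50 of the 52 UMIs of the other keratins were of Krt7, while Krt10 had 2 and Krt17 had 0. In KO Krt7 had 0 of the 13 UMIs. Fibroblast markers were higher by 2.76 in WT, where cell 4 held 20 of the 25 UMIs, and had 3 UMIs in KO. The formative and primed list was lower, at -0.62 and -0.88. Higher sums were thus seen for lists of several kinds of cell, but some of them rested largely on 1 gene or 1 cell.

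Single genes other than the 4 keratins were ranked after the values were seen. Those leading in both libraries included Jun, a subunit of AP-1 and a member of the regulator list described further on (3.59 in KO and 2.96 in WT, log2), the secreted chaperone Clu (3.26 and 4.38), the intracellular channel protein gene Clic1 (2.79 and 2.99), the calpain subunit Capn2 (2.85 and 3.88) and the tropomyosin Tpm4 (2.48 and 3.43). Clic1 was present in all 5 KO and all 7 WT keratin-rich cells, and in 65.0% and 72.3% of the others. The keratin-rich cells had a median of 29744 UMIs in KO, against 24434 in the other cells, and 33365 against 26646 in WT. The part of depth in these values was not tested.

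The KO over WT ratios were also taken without the keratin-rich cells, an alternative added after the data were seen. The limit counts UMIs of Krt8, Krt18 and Krt19, so leaving those cells out lowers these 3 genes by construction and can hardly touch Krt42. Krt8 was then at 7.05 CPM in KO and 7.69 CPM in WT, a log2 ratio of -0.12 (-0.49 to 0.24). Krt18 was at 8.24 and 12.4 CPM, a log2 ratio of -0.59 (-0.92 to -0.28). Krt19 was at 6.98 and 6.27 CPM, with a ratio of 0.16 (-0.23 to 0.54). Krt42 was at 36.2 and 65.0 CPM, with a ratio of -0.84 (-0.99 to -0.70). The correlation of Krt8 and Krt18 was 0.07 in WT and 0.19 in KO on the same thinned counts, and was 0.10 in both after a new draw.

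The share of a cell's UMIs from chromosome 8, on which none of the 4 genes lies, also differed between the libraries. It was raised, at least 1.2 times the WT median, in 278 of 580 KO and 86 of 873 WT endoderm-low cells. All 5 KO keratin-rich cells had a raised share, and 1 of the 7 WT ones did. Among cells with a usual share, Krt8 was at 5.56 CPM in KO and 24.1 CPM in WT (log2 ratio -2.10, interval -2.61 to -1.66), and Krt18 at 6.78 and 31.8 CPM (-2.22, -2.68 to -1.82). Krt19 was at 5.43 and 8.95 CPM (-0.71, -1.25 to -0.22), the opposite direction to that over all cells.

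Among cells with a raised share, Krt8 was higher in KO, at 18.6 against 7.06 CPM (1.36, 0.65 to 2.25), and so was Krt19, at 14.7 against 4.42 CPM (1.67, 0.80 to 2.84). Krt18 was at 13.9 and 16.8 CPM (-0.29, -0.83 to 0.31). The 5 KO keratin-rich cells held 73 of the 133 Krt8 and 45 of the 105 Krt19 UMIs of KO cells with a raised share. In WT these genes had 16 and 10 UMIs there, 7 and 1 of them in its 1 keratin-rich cell. Ratios without keratin-rich cells were not taken at a raised share. Krt42 was lower in KO in both sets, with log2 ratios of -0.65 (-0.84 to -0.47) at a usual and -1.33 (-1.61 to -1.04) at a raised share. With a usual share and no keratin-rich cells, the ratios were -0.53 (-1.07 to -0.04) for Krt8 and -0.89 (-1.37 to -0.46) for Krt18. They were -0.25 (-0.81 to 0.25) for Krt19 and -0.66 (-0.85 to -0.48) for Krt42. The part of chromosome 8 in these results was not tested.

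**Figure D4:**
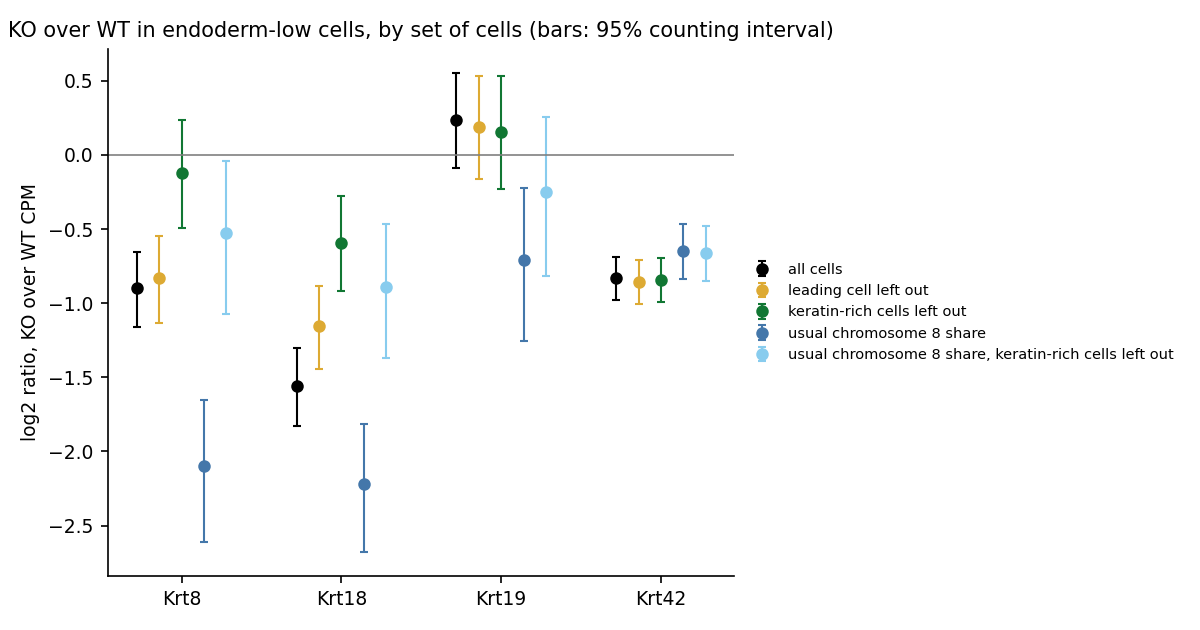
Log2 ratio of KO over WT CPM (y axis) for each keratin in endoderm-low cells, over all cells, without the 1 cell of each library with most UMIs of the gene, without keratin-rich cells, and with a usual chromosome 8 share with and without keratin-rich cells; bars are 95% counting intervals. In the sets drawn Krt42 stays between -0.86 and -0.65, while Krt8 ranges from -2.10 to -0.12. Cells with a raised share are not drawn, and there Krt42 was at -1.33 and Krt8 at 1.36.

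Within the KO library, endoderm-high cells had more Krt8, Krt18 and Krt19 and less Krt42 than endoderm-low cells. Krt8 had 106 UMIs in the 94 cells (47.0 CPM, interval 38.5 to 56.8), a log2 ratio of 1.97 (1.61 to 2.33) over endoderm-low cells. Krt18 had 97 UMIs (43.0 CPM, 34.9 to 52.4) and a ratio of 2.07 (1.68 to 2.44). Krt19 had 43 UMIs (19.1 CPM, 13.8 to 25.7) and a ratio of 0.94 (0.40 to 1.43). Krt42 had 12 UMIs, 1 in each of 12 cells (5.32 CPM, 2.75 to 9.29), and a ratio of -2.71 (-3.73 to -1.95).

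All 4 keratins were among the 6967 genes whose mean reached 10 CPM in this comparison, whose median ratio was 0.11. Of these genes 15.2% were at least 2-fold higher and 5.08% at least 2-fold lower in endoderm-high cells. Krt8 and Krt18 were in the first group and Krt42 in the second, and nothing is read from these counts either. Across the 3 classes the order for Krt8 and for Krt18 was KO endoderm-high, WT endoderm-low, KO endoderm-low, with no overlap of neighbouring intervals. For Krt42 it was WT endoderm-low, KO endoderm-low, KO endoderm-high, again with none, and for Krt19 the endoderm-high level stood above both endoderm-low levels, whose intervals overlapped. Keratin-rich cells were chosen in part by their Krt8 UMIs, so leaving them out lowers Krt8 by construction. Without them the WT and KO endoderm-low levels of Krt8 were 7.69 and 7.05 CPM. The interval of their log2 ratio, -0.49 to 0.24, then included 0. Among cells with a usual chromosome 8 share, also without keratin-rich cells, it was -1.07 to -0.04 and did not include 0.

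Krt8 and Krt18 were detected in a larger share of endoderm-high than of endoderm-low KO cells. After thinning, Krt8 was detected in 26.4% of 91 cells (17.7 to 36.7), Krt18 in 22.0% (13.97 to 31.9), Krt19 in 12.1% (6.19 to 20.6) and Krt42 in 5.49% (1.81 to 12.4). The highest cell held 8 of the 106 Krt8 UMIs (7.55%, against 24.1% in endoderm-low cells) and 11 of the 97 Krt18 UMIs (11.3%, against 8.05%). The variance over the mean was 1.76 for Krt8, below the 5.12 of endoderm-low cells, and 3.07 for Krt18, above their 1.21. The correlation of Krt8 and Krt18 over these 91 cells was 0.55, and 0.22 without 8 keratin-rich ones. With keratin-rich cells left out of both classes, the ratio over endoderm-low cells was 2.23 for Krt8, 1.30 for Krt18, 0.80 for Krt19 and -2.72 for Krt42.

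In this comparison too the chromosome 8 share moved the values. At a usual share (33 endoderm-high and 302 endoderm-low KO cells) the log2 ratio was 3.32 for Krt8, 3.20 for Krt18, 2.31 for Krt19 and -3.10 for Krt42. At a raised share (61 and 278 cells) it was 1.197, 1.27, 0.08 (interval -0.66 to 0.72) and -2.36. Macrophage markers summed to 507.8 CPM in endoderm-high and 4.62 CPM in endoderm-low KO cells. With the 2 endoderm-high cells of at least 10 macrophage UMIs left out, the ratios were 1.99, 2.09, 0.93 and -2.69.

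Along the count of endoderm UMIs in KO cells, Krt8 went from 9.86 CPM at 0 UMIs (439 cells) through 17.7 at 1 (141 cells), 18.1 at 2 to 9 (57 cells), 29.1 at 10 to 29 (31 cells) and 48.4 at 30 to 59 (23 cells) to 58.9 CPM at 60 or more (40 cells). Krt42 went the other way over the same bins, from 37.0 through 34.1, 22.9, 11.1 and 1.94 to 2.95 CPM, the last pair resting on 1 and 3 UMIs. Krt18 was at 9.29 CPM in the first bin and 53.0 CPM in the last, with 29.1 CPM at 30 to 59 UMIs below the 38.7 CPM at 10 to 29. Krt19 showed no steady course, with 24.9 and 27.1 CPM in the middle bins and 10.8 CPM in the last.

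Next to the limits of the classes, Krt8 was at 7.45 CPM in the 30 KO cells with 2 endoderm UMIs, at 78.2 CPM in the 6 cells with 8 or 9, and at 13.5 CPM in the 4 cells with 10 or 11. Those last values rest on 11 and 1 UMIs. For Krt42 the same cells had 18.6, 35.5 and 0 CPM.

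**Figure D5:**
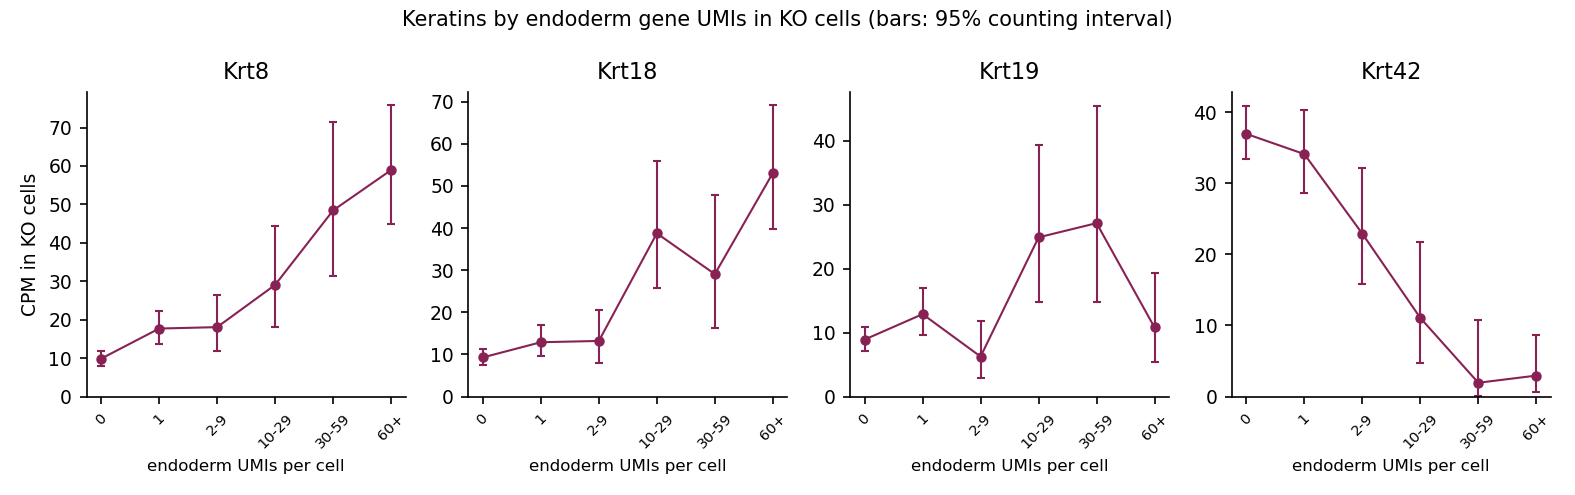
CPM of each keratin (y axis, its own scale in each panel) in KO cells binned by UMIs over the 8 endoderm genes of the rule (x axis), with bars for 95% counting intervals. Krt8 stands at 9.86 CPM in the first bin and 58.9 CPM in the last, and Krt42 at 37.0 and 2.95 CPM.

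The other keratins were scarce. Of 47 further keratin genes in the matrix, 26 had no UMI in endoderm-low cells of either library and 2 reached a mean of 10 CPM. Krt10, a type I keratin of the differentiating epidermis, had 250 UMIs in KO and 384 in WT, a log2 ratio of 0.03 (-0.21 to 0.26). Krt17, a type I keratin of stratified epithelia and skin appendages, had 110 and 327 UMIs, a ratio of -0.92 (-1.25 to -0.61), beside the -0.83 of Krt42. In KO endoderm-high cells Krt17 had no UMI. The last 500 bases of the Krt42 transcript match Krt17 over 173 bases at 83.2% identity, and how reads shared by such genes were counted is not given in the sources used here, so both values are uncertain to that extent. Krt18 resembles a pseudogene, Gm5200, over 428 bases at 92.1% identity, which is no row of the matrix, and Krt8 resembled no other transcript in that search. Krt19 matched 5 other genes, all of them in the matrix, most closely Krt13 over 300 bases at 79.7% identity, so its value carries the same uncertainty.

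Few genes that work with keratins were 2-fold apart between the libraries. Of 15 desmosome and plakin genes, which anchor keratin filaments, 7 passed 10 CPM in the KO over WT comparison, and their median log2 ratio was 0.07, beside 0.06 for all genes. Perp was at least 2-fold higher in KO (1.19, 1.02 to 1.35), where 0.854% of all genes were, and none was at least 2-fold lower. The cytolinker Plec was at 0.82 (0.61 to 1.02) and the plakoglobin gene Jup at -0.07. Of 11 epithelial adhesion genes that passed, none was 2-fold apart. Cdh1, which encodes E-cadherin, was at 0.69 (0.58 to 0.80), and Cldn7 at -0.63 (-0.82 to -0.45). Of 8 other intermediate filament genes none was 2-fold apart, and Vim was at -0.31 (-0.45 to -0.18).

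Of 14 known regulators of keratin genes 9 passed 10 CPM, with a median of -0.44, and 3 of these were at least 2-fold lower in KO, where 0.637% of all genes were, and none at least 2-fold higher, where 0.854% were. These were the AP-1 genes Fos (113 and 2561 UMIs, log2 ratio -3.85), Fosb (114 and 591, -1.72) and Jun (207 and 983, -1.60). Fos and Fosb passed through their WT level alone, each being under 8 CPM in KO, so nothing is read from the count of 3. Fos is a classical target of serum response factor. Fosl1, another AP-1 gene, did not pass, and its 88 UMIs in KO against 13 in WT gave a log2 ratio of 3.36 (2.56 to 4.37). In KO endoderm-high cells, where Krt8 and Krt18 were higher, these 3 were higher than in endoderm-low cells, by 2.33, 2.58 and 3.03. Of 8 regulators that passed there, 4 were at least 2-fold higher, where 15.2% of all genes were, Jund at 1.16 being the fourth. Fos and Fosb passed there through their endoderm-high level alone, each being under 8 CPM in endoderm-low cells. Nothing is read from that count. Over endoderm-low cells the regulators' summed counts had a correlation of 0.02 with Krt8, Krt18 and Krt19 in both libraries.

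In endoderm-high KO cells the lamin gene Lmna was higher than in endoderm-low cells (2.65, 2.44 to 2.87), as were Vim (1.03) and Cldn6 (2.40), while Cldn4 was lower (-3.09) and Ina, a neuronal filament gene, was lower (-1.83). Of the endoderm genes that the rule did not use, Sparc, a matrix glycoprotein gene, was at 2267 CPM in endoderm-high and 99.9 CPM in endoderm-low cells (4.50), and the laminin gene Lamb1 at 412.5 and 13.3 CPM (4.95). Many others of that list reached 10 CPM through the endoderm-high cells alone, so they are not counted. Of 11 naive pluripotency genes that passed, 7 were at least 2-fold lower, where 5.08% of all genes were, among them Nanog (-3.85) and Esrrb (-2.60). Of these 7, Nanog and Fgf4 passed through their endoderm-low level alone, being at 4.87 and 2.22 CPM in endoderm-high cells. Nothing is read from this count. Tbx3 was at least 2-fold higher (1.10), and Klf5 (0.69) and Zfp42 (0.19) were also above 0. In endoderm-low cells the naive list's sum had a correlation with Krt42 of 0.13 in KO and 0.17 in WT, and with Krt8, Krt18 and Krt19 of -0.19 and -0.17 (-0.13 and -0.08 without keratin-rich cells). The formative and primed list had a correlation with Krt42 of -0.23 in KO and 0.02 in WT.

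No gene followed the keratins closely from cell to cell. Ranked by the smaller of the KO and WT correlations with the summed count of the 4 keratins, among 4161 genes, the first was Clic1 (0.17 in both), followed by Bsg (0.12 and 0.15), Gapdh, Mad2l2, S100a10, Serpinh1, Grsf1, Tubb6, Slc25a4 and Cldn7 (0.09 and 0.11). The lowest were Chchd10 (-0.20 and -0.16), Mkrn1, Mybl2, Rpl41 and Tet1. These are weak values in sparse counts, over 520 KO and 798 WT cells that share a library. With Krt8, Krt18 and Krt19 alone, a score added after the data were seen, Clic1 was at 0.23 in both and Chchd10 at -0.27 and -0.29. With Krt42 alone the first was Spp1 (0.13 and 0.15).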

How the data were processed

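Each deposited matrix gives raw integer counts, the UMIs of every gene in each cell, as stated by its MatrixMarket header. The submitters' processing notes name Cell Ranger 2.0.0, Seurat 3.1.1 and mm10. The annotation, the rule for calling cells and the rule for shared reads are not given in the sources used here. Strand use is likewise not stated, so antisense and overlapping genes cannot be told apart.

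The 4 keratins, the gene lists and the cell limits were chosen with earlier results of these data known. Counts were summed over the cells of a class and scaled to CPM. For log2 ratios 0.5 counts were added to both sums, and summaries over genes took those whose mean reached 10 CPM. Intervals at 95% are exact: Poisson for levels, conditional binomial for ratios, Clopper-Pearson for shares. They cover counting error only. A count of 0 allows 3 counts of the total. No test was made, as each genotype has 1 library. Shares, CV2 and correlations used cells thinned to 10000 UMIs. Doublets were called with Scrublet in scanpy 1.11.5 at 0.8% per 1000 cells and kept. The chromosome 8 share is over autosomal genes without highly expressed and ribosomal protein genes, relative to the WT median. Named genes were the members, the lists and the 10 highest and 5 lowest correlations with the summed keratins among genes whose mean reached 0.2 thinned UMIs. The leading genes of keratin-rich cells were ranked after their values were seen. Of 27998 genes, 27722 matched GENCODE M21 by identifier. Similar transcripts were found with BLAST 2.17.0. The code ran in Python 3.11.15 and was tested on simulated data.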

Additional observations from a re-analysis of the deposited data

How the results depend on the processing

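No paired analysis was possible because only 1 library stands for each genotype. Of the 19 alternatives run for each log2 ratio, Krt42 kept its direction in all (KO over WT between -1.33 and -0.65, endoderm-high over endoderm-low between -3.37 and -2.22), and Krt18 did too (-2.22 to -0.29 and 1.21 to 3.20). A log2 ratio is given here where it left the counting interval of the value reported, and a correlation where it moved by over 0.05. With mitochondrial limits of 0 to 10%, the KO over WT log2 ratio of Krt8 was -1.19. With 1 to 5% it was -0.62, the endoderm-high over endoderm-low ratios were 1.52 for Krt8 and 1.61 for Krt18, and the KO correlation of Krt8 and Krt18 was 0.53. Without the deepest 5% of cells Krt8 KO over WT was -0.62 and the KO correlation 0.26. Among cells of at least 15000 UMIs the KO correlation was 0.48. With endoderm limits of 0 and 20 the endoderm-high ratio of Krt8 was 2.47 and the KO correlation 0.20, and with 3 and 5 the correlation was 0.43. Without thinning the correlations were 0.52 in KO and 0.68 in WT. With only a usual chromosome 8 share, KO over WT was -2.10 for Krt8, -2.22 for Krt18, -0.71 for Krt19 (reversed) and -0.65 for Krt42, endoderm-high ratios were 3.32, 3.20 and 2.31 for Krt8, Krt18 and Krt19, and the KO correlation was 0.018. With only a raised share, KO over WT was 1.36 for Krt8 (reversed), -0.29 for Krt18, 1.67 for Krt19 and -1.33 for Krt42, and endoderm-high ratios were 1.197, 1.27 and 0.080. With a usual share and no keratin-rich cells KO over WT was -0.53, -0.89, -0.25 (Krt19, reversed) and -0.66, and the endoderm-high ratios of Krt18 and Krt19 were 1.38 and 0.34. Without cells of at least 10 keratin UMIs KO over WT was -0.12 for Krt8 and -0.59 for Krt18, the endoderm-high ratio of Krt18 was 1.30, and the correlations were 0.10 in KO and 0.098 in WT. Without cells of at least 5, KO over WT was 0.013 for Krt8 and -0.14 for Krt19 (both reversed) and -0.54 for Krt18, the endoderm-high ratio of Krt18 was 1.21, and the correlations were 0.026 and -0.020 (reversed). Without the leading cell Krt18 KO over WT was -1.16. The count of genes at least 2-fold apart, 96 at a mean of 10 CPM, was 450 at 1 CPM and 2899 with no minimum. Thinned to 5000 UMIs the KO minus WT share of cells was 1.14 percentage points for Krt19, and thinned to 15000 it was 0.58 for Krt8, both opposite in sign to those at 10000, and at 5000 it was -6.99 for Krt42, against -14.5. The KO over WT log2 ratio of CV2, -1.05 for Krt8, -2.50 for Krt18 and -0.080 for Krt19 at 10000 UMIs, was -0.83, -1.62 and -0.49 at 5000, -1.40 for Krt8 and 0.86 for Krt19 (reversed) at 15000, and -1.41 for Krt8 and -3.07 for Krt18 without thinning. The alternatives with keratin-rich cells, macrophage UMIs, leading cells or a raised chromosome 8 share left in or out were added after seeing the data. Other causes were not tested. Genotype and library cannot be told apart.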

Other observations

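Cells with under 1% mitochondrial UMIs, which entered none of the comparisons, also held cells with many keratin UMIs. In the WT library 16 such cells had 90 Krt8 and 80 Krt18 UMIs, and 1 cell of 58626 UMIs held 88 and 78 of them, with 20 of Krt19 and 0 of Krt42. In the KO library 244 such cells had 88 Krt8 UMIs (30.9 CPM), and 1 cell of 55706 UMIs held 52 of them, with 25 of Krt18 and 0 of Krt42. Krt42 was at 45.7 CPM in these KO cells and at 38.5 CPM in the WT ones.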
